A study of Mus musculus with 6 samples.

Results

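The interferon-inducible GTPases examined here were 10 genes of 2 families, taken by symbol from a list, with no threshold on a measured value: the immunity-related GTPases Irgm1, Irgm2, Igtp and Iigp1 and the guanylate-binding proteins Gbp2, Gbp3, Gbp4, Gbp5, Gbp6 and Gbp7. All 10 were found among the 24520 genes of the deposited tables, and all 10 passed the filter on low counts that left 14667 genes for testing. RNA came from mouse lung endothelial cells, the cells lining blood vessels, isolated by fluorescence-activated cell sorting. There were 3 libraries of genotype "wt" and 3 of genotype "ko" for Dnmt3a, an enzyme that places new DNA methylation marks. The labels name no further allele, promoter or Cre driver, strain, age, treatment, time or sort gate, and no agent such as an interferon is listed for either group. They do not say that the libraries of a group came from separate animals, so each p-value measures the spread between these libraries alone. Replicate 1 differed in sex from replicates 2 and 3 by its transcripts (below), while the spread between replicates 2 and 3 may be technical. Values are given as "under WT" and "under KO" for the libraries with those labels, in the order of replicates 1, 2 and 3.

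Interferon binds receptors on the cell surface, kinases of the JAK family phosphorylate STAT proteins, and STAT and IRF transcription factors then switch on genes whose promoters hold short DNA elements: the gamma-activated site (GAS), bound by STAT dimers, and the interferon-stimulated response element (ISRE), bound by IRF proteins and by complexes of STAT proteins with IRF9. The immunity-related GTPases and the guanylate-binding proteins are among the strongest targets of interferon-gamma in mouse cells, endothelium included. They bind GTP and assemble on the membranes of vacuoles that hold bacteria or parasites, where effectors such as Iigp1 and the guanylate-binding proteins attack the membrane, while the regulators Irgm1, Irgm2 and Igtp sit on the cell's own membranes and hold effectors in check.

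None of the 10 GTPase genes passed the test between the labels. The edgeR quasi-likelihood test called 0 of the 10 at an adjusted p under 0.05, beside 5 of 14667 genes (0.0341%) over the whole table. At an unadjusted p under 0.05 it again gave 0 of the 10, beside 12.6% of all genes tested, and in 0 of the 10 did the CPM (counts scaled to library size) of the groups fail to overlap, beside 20.3% of all genes. DESeq2 also called 0 of the 10, beside 2.79% of the genes it gave an adjusted p, and had 0 of the 10 at an unadjusted p under 0.05. Of the 10 log2 fold changes, taken throughout as libraries labelled KO over libraries labelled WT, 5 were positive and 5 negative with a median of -0.04, and over all genes tested 7470 were positive and 7197 negative with a median of 0.0086. A p that misses the threshold does not show equal expression, and the 95% intervals of the single genes, given below, reached from -1.87 to 1.34 at their widest ends.

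The targeted gene went against the labels: Dnmt3a averaged 35.3 ± 3.10 CPM (SD, n = 3) in libraries with the WT label and 165 ± 6.45 CPM (n = 3) in libraries with the KO label, with a log2 difference of 2.22 (SE 0.11) and an edgeR adjusted p of 0.00157, so directions below are between labels only. Library totals ran from 28136194 to 39999172 estimated counts, and the floor of 3 counts in a library equals 0.0796 to 0.102 CPM. Endothelial markers summed to 16653 to 20289 CPM, with the ranges of the groups overlapping. Xist and Y-linked genes marked replicate 1 as female and replicates 2 and 3 as male under each label.

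By GENCODE M21 on mm10, all 10 are annotated as protein-coding. Gbp5 (ENSMUSG00000105504, 142493978 to 142522344), Gbp7 (ENSMUSG00000040253, 142530342 to 142550149), Gbp3 (ENSMUSG00000028268, 142560026 to 142573209) and Gbp2 (ENSMUSG00000028270, 142620602 to 142638008) follow each other on the plus strand of chromosome 3. Gbp4 (ENSMUSG00000079363, 105115767 to 105139586) and Gbp6 (ENSMUSG00000104713, 105270702 to 105293698) lie on the minus strand of chromosome 5. On chromosome 11, Irgm1 (ENSMUSG00000046879, 48861968 to 48871683, minus strand) stands alone, while Igtp (ENSMUSG00000078853, 58199556 to 58207591) and Irgm2 (ENSMUSG00000069874, 58199618 to 58222782) overlap on the plus strand.

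RefSeq's promoter windows on GRCm38.p6 run from 250 bases before to 50 bases after an annotated start. They were read for 7 of the 10 genes, with 2 windows for Gbp3. Gbp4 and Gbp6 had none. Iigp1 was left out of this reading, and whether RefSeq has a window for it was not tested. The windows were searched on both strands for the ISRE core GAAANNGAAA and for the GAS form TTCNNNGAA, which reads the same on both strands. All 7 genes had an ISRE core match in a window, and Igtp, Irgm2, Gbp5 and Gbp7 had a GAS match as well. The second window of Gbp3 had no match of either kind. Of the 32851 promoter windows in the RefSeq table, 3.44% had an ISRE core match, 8.30% a GAS match and 0.45% both. These shares count windows and not genes. A match describes the letters and is not a measured binding site. The 170 bases just before each start are shown because they carry all of these matches except a GAS match of Gbp5 farther upstream. They run 5′ to 3′ on the gene's strand, in lower case with the letters of every match in capitals, and for Gbp3 the first window is given:
Irgm1 (chr11:48871421-48871590, minus strand): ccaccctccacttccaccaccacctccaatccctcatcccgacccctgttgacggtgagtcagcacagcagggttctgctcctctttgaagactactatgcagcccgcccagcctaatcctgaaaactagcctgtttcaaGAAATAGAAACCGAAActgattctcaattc
Igtp (chr11:58199386-58199555, plus strand): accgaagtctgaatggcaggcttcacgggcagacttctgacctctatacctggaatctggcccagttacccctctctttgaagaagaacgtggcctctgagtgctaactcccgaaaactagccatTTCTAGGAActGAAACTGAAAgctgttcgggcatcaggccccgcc
Irgm2 (chr11:58214807-58214976, plus strand): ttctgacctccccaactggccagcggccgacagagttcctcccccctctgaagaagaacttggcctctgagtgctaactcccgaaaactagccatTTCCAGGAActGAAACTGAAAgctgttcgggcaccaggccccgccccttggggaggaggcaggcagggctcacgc
Gbp5 (chr3:142496764-142496933, plus strand): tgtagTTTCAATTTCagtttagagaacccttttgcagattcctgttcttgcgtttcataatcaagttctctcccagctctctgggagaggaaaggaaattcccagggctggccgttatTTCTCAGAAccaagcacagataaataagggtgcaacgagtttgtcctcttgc
Gbp7 (chr3:142530166-142530335, plus strand): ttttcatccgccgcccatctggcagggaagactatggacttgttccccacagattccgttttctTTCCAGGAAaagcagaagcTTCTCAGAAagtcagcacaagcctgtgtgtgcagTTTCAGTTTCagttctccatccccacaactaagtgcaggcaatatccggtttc
Gbp3 (chr3:142559874-142560043, plus strand): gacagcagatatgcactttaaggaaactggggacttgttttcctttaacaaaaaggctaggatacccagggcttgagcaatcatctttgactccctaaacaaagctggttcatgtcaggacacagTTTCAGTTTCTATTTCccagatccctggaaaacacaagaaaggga
Gbp2 (chr3:142620493-142620662, plus strand): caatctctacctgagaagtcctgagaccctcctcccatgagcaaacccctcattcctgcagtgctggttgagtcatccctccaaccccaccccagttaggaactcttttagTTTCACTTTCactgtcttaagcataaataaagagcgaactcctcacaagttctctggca

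In Igtp the GAS match (TTCTAGGAA) ended 37 bases before the start and the ISRE core (GAAACTGAAA) began 34 bases before it, with a gap of the letters "ct" between them. Irgm2 had the same arrangement with TTCCAGGAA and the same ISRE core, in the run from 75 to 55 bases before its start, which lies inside the gene as GENCODE draws it. The windows of Igtp and Irgm2 aligned over 271 columns with 91.1% identical letters. In Irgm1 the ISRE matches overlap each other and run from 30 to 15 bases before the start, and those of Gbp3 likewise overlap, from 45 to 30 bases before it. Gbp7 had its ISRE match, on the opposite strand, from 53 to 44 bases before the start with 2 GAS matches upstream of it, and Gbp2 had an ISRE match alone, from 59 to 50 bases before. Gbp5 differed in spacing, with its ISRE match 165 to 156 bases before the start and GAS matches at 52 to 44 and 245 to 237 bases before. CpG dinucleotides, the letters that DNA methyltransferases act on in mammals, numbered 2 in the windows of Gbp2 and Gbp3, 5 in Gbp5, 8 in Gbp7, 9 in Igtp and Irgm2 and 11 in Irgm1, where the median of all RefSeq windows was 7. Methylation itself was not analysed here.

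**Figure D1:**
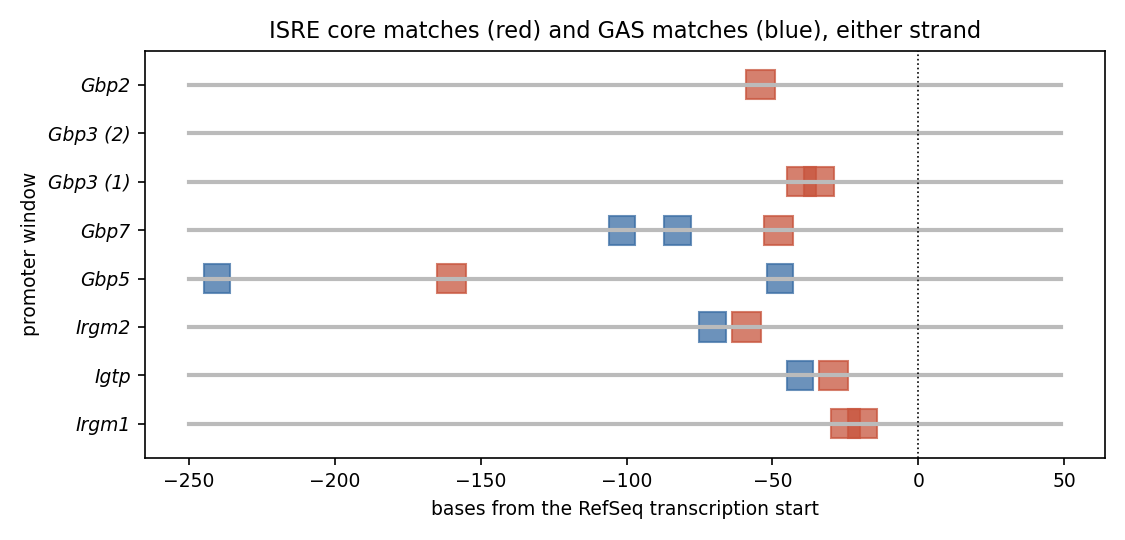
Positions of ISRE core matches (red) and GAS matches (blue), on either strand, in the RefSeq promoter windows of 7 of the GTPase genes, on an axis of bases from the transcription start (dotted line); Gbp3 has 2 windows. Each gene has a red block, placed near the start in all but Gbp5, 4 genes have blue blocks, and the second window of Gbp3 has neither.

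In TPM, a length-corrected unit that allows levels of different genes to be compared, the 10 genes took 0.0295% to 0.0446% of each library's TPM sum. Gbp7 and Gbp4 had the highest mean levels over the 6 libraries, followed by Gbp2, Igtp, Irgm1, Iigp1, Irgm2, Gbp3, Gbp6 and Gbp5. Neighbours in that order overlapped in their ranges over the libraries, except Gbp3 and Gbp6, where all 6 values of Gbp3 lay above all 6 of Gbp6. Among the genes tested, the mean TPM of Gbp7 stood at percentile 84.1 and that of Gbp3, the lowest of the first 8, at percentile 64.2, while Gbp6 stood at 34.5 and Gbp5 at 19.9.

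**Figure D2:**
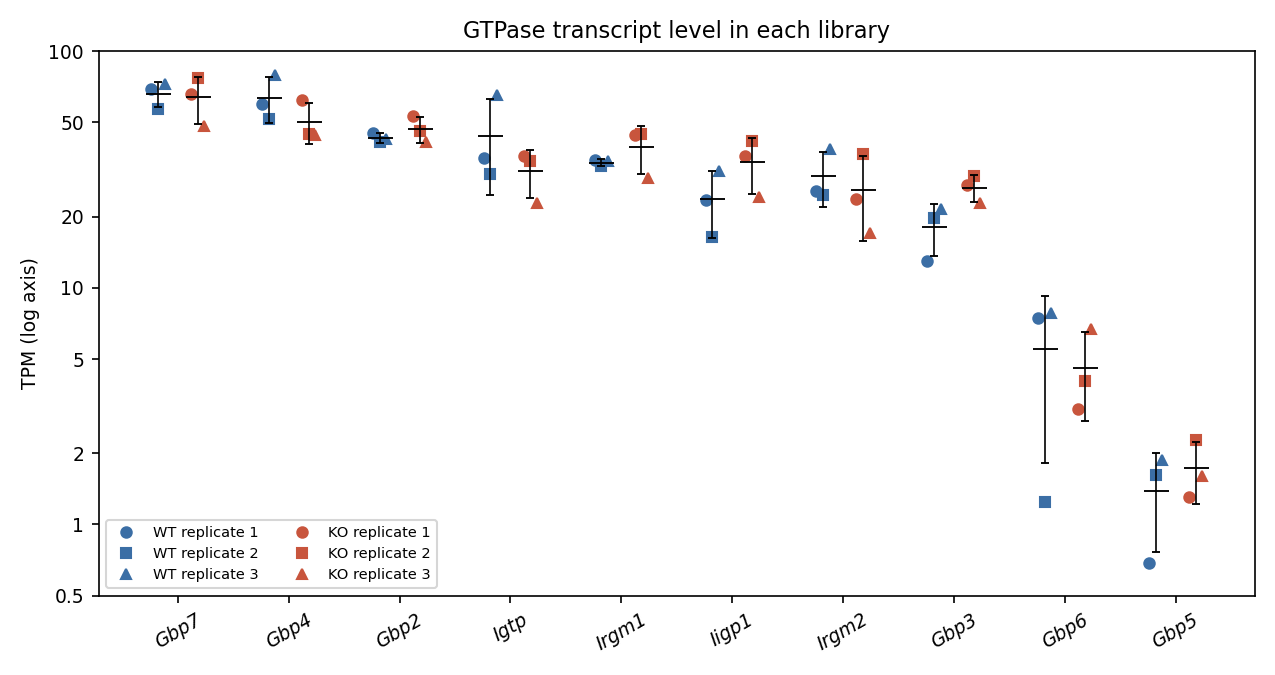
TPM of each GTPase gene in the 6 libraries on a log axis, ordered by mean level; blue points are libraries labelled WT, red points libraries labelled KO, shapes give the replicate number, and bars show mean and SD. The groups overlap for every gene but Gbp3, whose 3 values labelled KO (22.8 to 29.5 TPM) lie above the 3 labelled WT (13.0 to 21.4 TPM).

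Irgm1, the regulator best known from defence against mycobacteria, was at 34.6, 32.6 and 34.3 TPM under WT and at 44.1, 44.7 and 29.1 TPM under KO. KO replicates 1 and 2 were the highest and KO replicate 3 the lowest, so the groups overlapped. Between the labels the difference was 0.13 on the log2 scale (SE 0.18, 95% interval -0.28 to 0.55, edgeR adjusted p = 0.776).

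Igtp, also known as Irgm3 and needed for resistance to Toxoplasma gondii, was at 35.3, 30.3 and 65.5 TPM under WT and at 36.1, 34.5 and 22.8 TPM under KO. WT replicate 3 stood far above the other 5 libraries, and the remaining WT values lay within the range of the KO values. The log2 fold change was -0.59 (SE 0.34, 95% interval -1.38 to 0.20, edgeR adjusted p = 0.492), the most negative of the 10, and without WT replicate 3 it was -0.11 (adjusted p = 0.936). Of the 31-base words in Igtp's transcripts, 15.9% also occur in Irgm2, and because both genes overlap on 1 strand their counts could be split between them; with Irgm2's counts added to Igtp's the log2 fold change was -0.41 (edgeR adjusted p = 0.604).

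Irgm2, the third regulator, was at 25.7, 24.7 and 38.6 TPM under WT and at 23.7, 36.8 and 17.0 TPM under KO. WT replicate 3 and KO replicate 2 were high and KO replicate 3 was low, and the groups overlapped. Its log2 fold change was -0.28 (SE 0.32, 95% interval -1.03 to 0.46, edgeR adjusted p = 0.732), and 0.0048 without WT replicate 3.

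Iigp1, also called Irga6, is the effector that loads onto the vacuoles of Toxoplasma and Chlamydia, and its gene (ENSMUSG00000054072) lies on the plus strand of chromosome 18, from 60376027 to 60392634. Its levels were 23.6, 16.3 and 31.2 TPM under WT and 36.0, 41.7 and 24.2 TPM under KO. KO replicates 1 and 2 exceeded every WT library and KO replicate 3 fell between WT replicates 1 and 3. The log2 fold change was 0.42 (SE 0.29, 95% interval -0.25 to 1.09, edgeR adjusted p = 0.559); without WT replicate 3 it was 0.72, with an unadjusted p of 0.0376 and an edgeR adjusted p of 0.674.

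Of the chromosome 3 guanylate-binding proteins, Gbp2, which is recruited to pathogen vacuoles, was the steadiest. Its levels were 45.0, 41.2 and 42.7 TPM under WT and 53.3, 46.1 and 41.4 TPM under KO. The ratio of its highest to its lowest library was 1.29, and the SD of its log2 CPM over the 6 libraries was at percentile 5.50 of all genes tested. Its log2 fold change was 0.05 (SE 0.12, 95% interval -0.22 to 0.32, edgeR adjusted p = 0.882), the narrowest interval among the 10.

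Gbp3 had the lowest p of the 10. It was at 13.0, 19.7 and 21.4 TPM under WT and at 27.3, 29.5 and 22.8 TPM under KO. In TPM the groups did not overlap, while in CPM the highest WT library (34.9) passed the lowest KO library (33.9). The log2 fold change was 0.47 (SE 0.22, 95% interval -0.05 to 0.99, unadjusted p = 0.0725, edgeR adjusted p = 0.425). It kept its sign in all 18 alternative analyses, from 0.25 without WT replicate 1 to 0.66 without WT replicate 3, and its lowest adjusted p among them was 0.306.

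Gbp7, linked to oxidase assembly and autophagy in phagocytes, was at 69.0, 57.1 and 72.6 TPM under WT and at 66.2, 76.8 and 48.3 TPM under KO. In TPM, KO replicates 2 and 3 held the highest and the lowest level, so the spread among the KO libraries spanned the WT libraries. In CPM, WT replicate 3 (266) was above KO replicate 2 (257). Gbp7's log2 fold change was -0.13 (SE 0.20, 95% interval -0.59 to 0.33, edgeR adjusted p = 0.800). Gbp5, known for promoting inflammasome assembly, was the lowest of the 10, at 0.686, 1.61 and 1.87 TPM under WT and 1.30, 2.28 and 1.60 TPM under KO. It rested on 40 to 134 estimated counts per library, and its log2 fold change was 0.24 (SE 0.47, 95% interval -0.87 to 1.34, edgeR adjusted p = 0.859).

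On chromosome 5, Gbp4 was at 59.6, 51.9 and 79.2 TPM under WT and at 62.0, 44.8 and 44.4 TPM under KO. WT replicate 3 was highest, KO replicates 2 and 3 were below every WT library, and KO replicate 1 exceeded WT replicates 1 and 2. The log2 fold change was -0.38 (SE 0.21, 95% interval -0.88 to 0.11, edgeR adjusted p = 0.478), and -0.16 without WT replicate 3. The annotated span of Gbp4 overlaps those of Gbp8 and Gbp9. The genes sharing most of Gbp4's 31-base words were instead Gbp6 (6.91%), Gm43302 (6.79%) and Gbp11 (6.41%). Gbp4's counts could be split with any of these genes. Gbp6 varied most, at 7.47, 1.25 and 7.82 TPM under WT and 3.08, 4.04 and 6.69 TPM under KO. Its highest library was 6.27 times its lowest, and the SD of its log2 CPM was at percentile 91.3 of genes tested. The log2 fold change was -0.37 (SE 0.64, 95% interval -1.87 to 1.12, edgeR adjusted p = 0.832) and 0.03 without WT replicate 3. Its counts are uncertain, since 74.3% of its 31-base words occur in other genes, 67.8% in Gm43302 and 51.4% in Gbp10; with the counts of both added the log2 fold change was -0.43. For the 8 genes besides Igtp and Gbp6, the shared words made up 2.88% (Irgm1) to 15.0% (Gbp4), with Irgm2 at 10.7%.

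**Figure D3:**
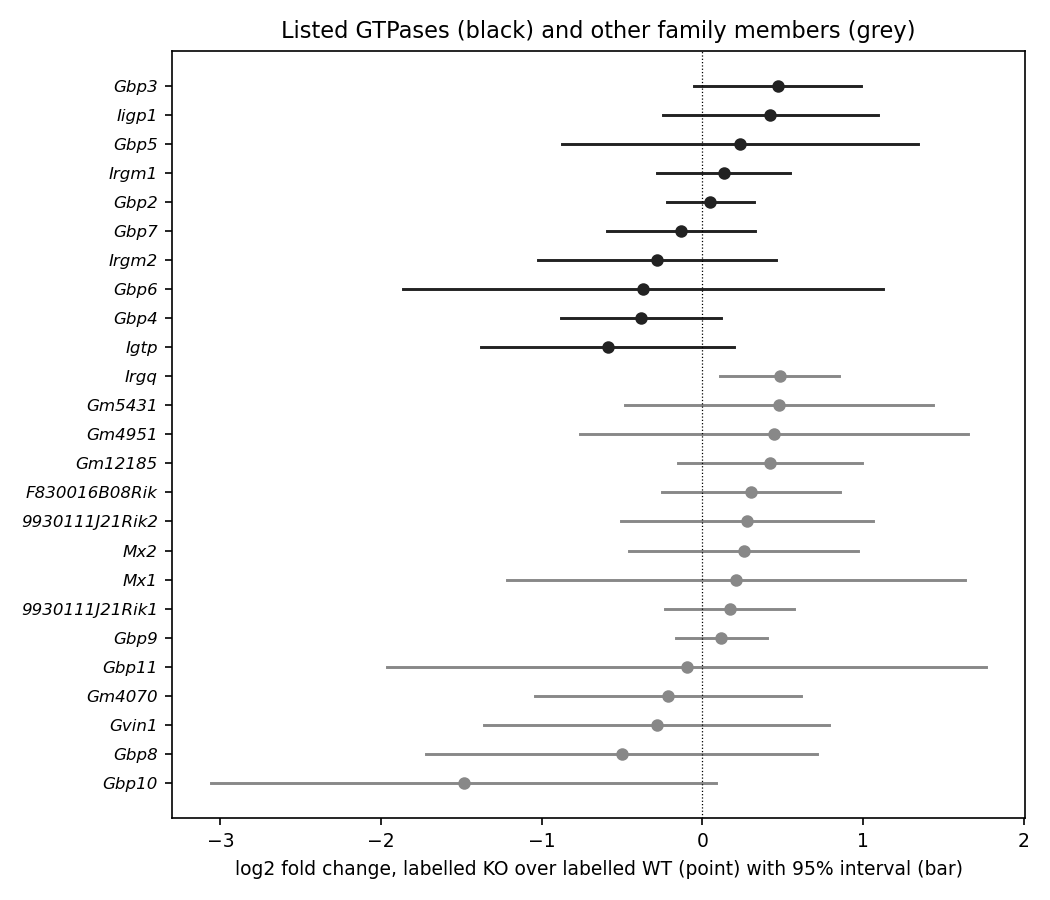
Log2 fold change, labelled KO over labelled WT, for the 10 GTPase genes (black) and 15 tested genes of the same and related families (grey); points are estimates from edgeR and bars their 95% intervals. All 10 black intervals include 0, from the narrow one of Gbp2 (-0.22 to 0.32) to the wide one of Gbp6 (-1.87 to 1.12), and the grey interval of Irgq does not.

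The 10 genes moved between libraries in more than 1 pattern. On CPM, WT replicate 3 was the highest library for 5 of them (Gbp7, Gbp4, Igtp, Irgm2 and Gbp6), KO replicate 2 for 4 (Irgm1, Iigp1, Gbp3 and Gbp5) and KO replicate 1 for Gbp2. Over all genes tested WT replicate 3 was highest for 2929 of 14667 and KO replicate 2 for 3080. KO replicate 3 was the lowest library for 4 of the 10 and WT replicate 2 for 3. Over the 6 libraries, which share depth and composition effects across genes, 39 of the 45 pairs of members had a positive Pearson correlation of log2 CPM, with a median of 0.42. It was highest between Gbp7 and Irgm2 (0.93) and lowest between Gbp3 and Gbp4 (-0.22). The balance of signs moved whenever a library was left out: 7 of the 10 log2 fold changes were positive without WT replicate 3 (median 0.06), 6 without KO replicate 3 (median 0.07), and 4 without each of the other libraries, with the lowest median, -0.16, without KO replicate 2.

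**Figure D4:**
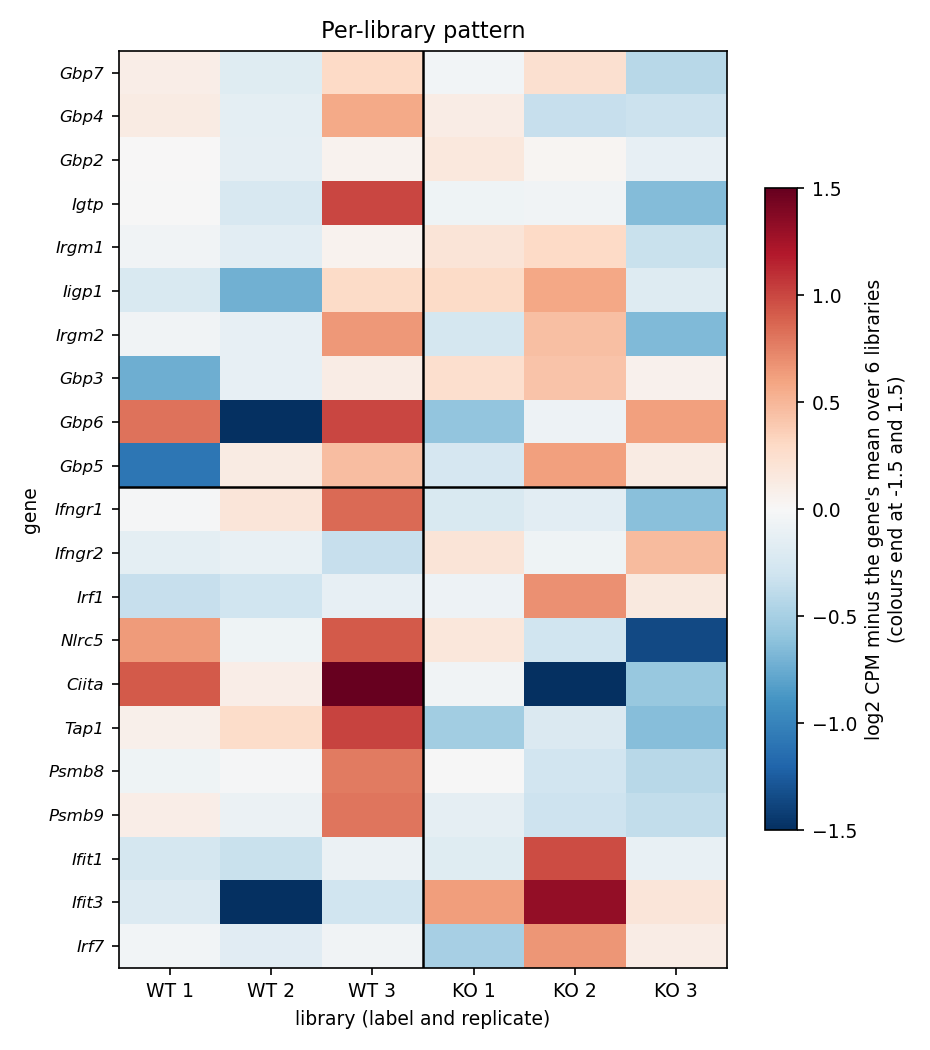
Heat map of log2 CPM minus each gene's mean over the 6 libraries, for the 10 GTPase genes (above the line) and 11 genes of interferon signalling and response; red is above the mean and blue below, and colours end at -1.5 and 1.5. Igtp, Irgm2, Gbp4, Tap1, Psmb8 and Psmb9 are reddest in WT 3, while Ifit1, Ifit3 and Irf7 are reddest in KO 2.

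Of 26 further family symbols searched, 17 were in the tables and 15 were tested. The edgeR test called 0 of the 15, and 1 had an unadjusted p under 0.05 with groups that did not overlap. Over all genes tested, 12.6% had an unadjusted p under 0.05 and 20.3% did not overlap. That gene was Irgq, an immunity-related GTPase-like gene, which was at 4.87, 6.92 and 5.22 TPM under WT and 8.79, 7.93 and 8.20 TPM under KO (log2 fold change 0.48, SE 0.16, edgeR adjusted p = 0.326). Gbp9, next to Gbp4, had mean levels of 44.8 TPM under WT and 51.1 TPM under KO (log2 fold change 0.12, SE 0.12, edgeR adjusted p = 0.706), near those of Gbp2. The predicted GTPase gene 9930111J21Rik1 was at 54.4 TPM under WT and 64.1 TPM under KO, but 88.9% of its 31-base words occur in other genes. Gbp10, of whose words 89.8% are shared, mostly with Gbp6, had the most negative value (log2 fold change -1.49, SE 0.67, edgeR adjusted p = 0.411). The dynamin-like antiviral GTPases Mx1 and Mx2 were low, at 0.317 and 3.44 TPM under WT and 0.383 and 4.29 TPM under KO. The median log2 fold change of the 15 was 0.21, with 10 positive.

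Upstream of these genes, transcripts of the interferons themselves were nearly undetected. Of 11 ligand genes, 9 had 0 counts in all 6 libraries, Ifng and Ifnb1 among them, which allows up to 0.0796 to 0.102 CPM per library. Ifna5 had 5 counts and Ifnk 3 counts in WT replicate 1 and none elsewhere.

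The 7 genes for interferon receptors and their kinases were all tested and 0 were called, beside 0.0341% of all genes tested. By edgeR, 1 had a higher and 1 a lower mean under KO at an unadjusted p under 0.05, beside 12.6% of all genes. The groups of the same genes did not overlap, beside 20.3% of all genes. Ifngr1, the ligand-binding chain of the interferon-gamma receptor, was at 421, 486 and 706 TPM under WT and at 387, 386 and 276 TPM under KO. All KO libraries lay below all WT libraries, with WT replicate 3 the highest and KO replicate 3 the lowest (log2 fold change -0.71, SE 0.25, unadjusted p = 0.0216, edgeR adjusted p = 0.334). Ifngr2, the signalling chain of the same receptor, lay the other way, at 57.8, 59.5 and 46.6 TPM under WT and 77.9, 62.0 and 89.0 TPM under KO (log2 fold change 0.41, SE 0.15, unadjusted p = 0.0285, edgeR adjusted p = 0.349). For Ifnar1, Ifnar2, Jak1, Jak2 and Tyk2, the type I receptor chains and the kinases, log2 fold changes ran from -0.16 (Tyk2) to 0.40 (Ifnar2), with unadjusted p over 0.05 and overlapping CPM.

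Among 13 interferon transcription factors, edgeR called 0, and Irf1 and Ciita had an unadjusted p under 0.05, beside 12.6% of all genes tested. Irf1, an interferon-induced factor that binds ISRE elements, was at 206, 214 and 220 TPM under WT and 264, 425 and 290 TPM under KO, without overlap (log2 fold change 0.54, SE 0.20, unadjusted p = 0.0294, edgeR adjusted p = 0.352). Ciita, the master coactivator of MHC class II genes, had 240, 122 and 1071 estimated counts under WT and 110, 12 and 77 under KO, with WT replicate 3 far above the rest (log2 fold change -2.57, SE 0.93, unadjusted p = 0.0264, edgeR adjusted p = 0.342). For Nlrc5, its counterpart for MHC class I genes, the groups overlapped and differed by -0.92 on the log2 scale (SE 0.41, edgeR adjusted p = 0.404). Irf8, a factor of myeloid cells and lymphocytes, was low, at 0.647 TPM under WT and 1.60 TPM under KO. KO replicate 2 was the highest library for 7 of the 13 factors.

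Other targets of interferon-gamma were read beside the GTPases. Of 25 tested, 0 were called. At an unadjusted p under 0.05, 5 had a lower and 1 a higher mean under KO, beside 12.6% of all genes in either direction. Of the 25 log2 fold changes, 19 were negative, and the median was -0.15. WT replicate 3 was the highest library for 17 of the 25, and without it the signs were 12 negative and 13 positive with a median of 0.04. The 5 lower genes were Tap1, Psmb9, Nos2 and, named here after their values were seen, Upp1 and Lap3. Genes of antigen processing were highest in WT replicate 3: Tap1, a subunit of the peptide transporter, was at 73.1, 84.1 and 129 TPM under WT and 51.1, 60.3 and 44.6 TPM under KO (log2 fold change -0.96, SE 0.25, edgeR adjusted p = 0.288). Psmb9, an immunoproteasome subunit, was at 147, 131 and 220 TPM under WT and 131, 113 and 107 TPM under KO (log2 fold change -0.59, SE 0.23, edgeR adjusted p = 0.362). Tapbp, which bridges Tap1 to MHC class I, and Wars, a tRNA synthetase induced by interferon-gamma, had log2 fold changes of -0.32 and -0.11 with overlapping groups. Against that direction, Parp14, an ADP-ribosyltransferase, was at 10.4, 9.11 and 8.93 TPM under WT and 12.9, 15.2 and 11.6 TPM under KO (log2 fold change 0.42, SE 0.14, edgeR adjusted p = 0.326). Nos2, the inducible nitric oxide synthase, was at 29.3, 31.8 and 29.0 TPM under WT and 25.04, 20.4 and 23.2 TPM under KO, without overlap (log2 fold change -0.47, SE 0.11, edgeR adjusted p = 0.269).

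The 20 type I interferon targets leaned the other way, with 18 positive log2 fold changes, a median of 0.26 and 0 called by edgeR. At an unadjusted p under 0.05 there were 3, Ifit3, Cmpk2 and Oas2, beside 12.6% of all genes tested. KO replicate 2 was the highest library for 14 of the 20, and without it 14 were positive with a median of 0.12. Ifit3, an RNA-binding antiviral protein, was at 5.41, 2.02 and 4.71 TPM under WT and 10.4, 16.0 and 7.22 TPM under KO (log2 fold change 1.36, SE 0.44, edgeR adjusted p = 0.324). For Cmpk2, a mitochondrial nucleotide kinase, the difference was 0.56 on the log2 scale (SE 0.23, edgeR adjusted p = 0.382) without overlap. Oas2, an oligoadenylate synthetase, had 11, 7 and 0 estimated counts under WT and 101, 113 and 48 under KO (edgeR adjusted p = 0.282). The abundant Bst2, a tether of budding virions, and Ifi35 had log2 fold changes of 0.16 and 0.16 with overlapping CPM.

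Of 9 tested inhibitors of interferon signalling, edgeR called 0, and 2 had an unadjusted p under 0.05, beside 12.6% of all genes tested. These were Irf2bp2 and the phosphatase gene Ptpn1, the latter named after its values were seen. Irf2bp2, a transcriptional corepressor, did not overlap between groups (22.6, 17.2 and 14.9 TPM under WT, 27.3, 48.0 and 25.1 TPM under KO, log2 fold change 0.81, SE 0.27, edgeR adjusted p = 0.327). The abundant inhibitors Cish and Pias1 had log2 fold changes of 0.18 and -0.12 with overlapping groups. Of 22 tested partners of the GTPases in cell-autonomous defence, mostly autophagy and ubiquitin genes, 0 were called. Their median log2 fold change was 0.27, with 15 positive and 7 negative. At an unadjusted p under 0.05 there were 4, beside 12.6% of all genes tested. The groups did not overlap for 6 partners higher and 1 lower under KO, beside 20.3% of all genes in either direction. The 4 had higher values in all libraries labelled KO. Rnf213, a very large ubiquitin ligase, was at 14.9, 12.1 and 10.0 TPM under WT and 19.2, 19.6 and 18.4 TPM under KO (log2 fold change 0.56, SE 0.14, edgeR adjusted p = 0.282). Atg7, an enzyme of LC3 lipidation, was at 17.2, 19.7 and 17.2 TPM under WT and 24.97, 25.003 and 26.8 TPM under KO (log2 fold change 0.45, SE 0.11, edgeR adjusted p = 0.282). Atg16l1, another part of that machinery, and the autophagy receptor Sqstm1 differed by 0.51 (SE 0.16) and 0.42 (SE 0.13) on the log2 scale, with edgeR adjusted p of 0.317 and 0.305. Other autophagy genes had overlapping CPM. Their log2 fold changes were -0.16 for Atg5, -0.04 for Atg12, -0.07 for the abundant Map1lc3b, 0.30 for Atg3 and 0.32 for Gabarapl1.

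**Figure D5:**
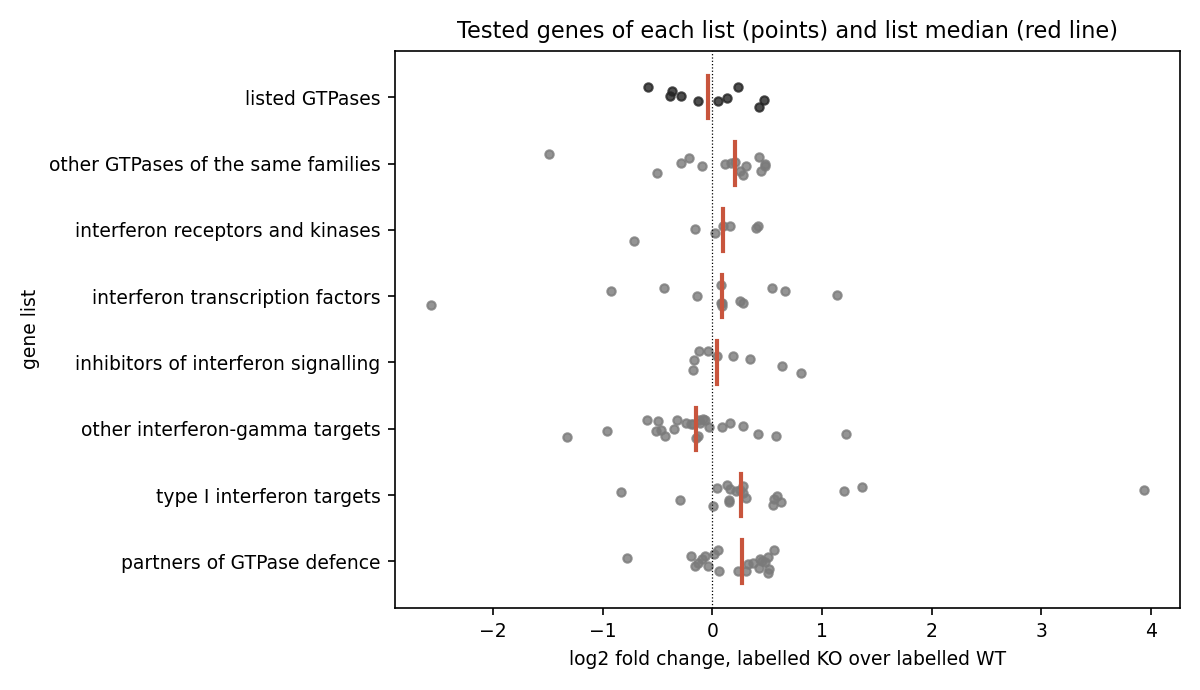
Log2 fold change, labelled KO over labelled WT, of the tested genes of each list (points) with the list's median (red line). The GTPases centre near 0 (median -0.04) between the other interferon-gamma targets (-0.15) and the type I interferon targets (0.26), and no point shown passed the adjusted threshold.

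The nearest tested protein-coding genes outside these GTPase families, on each side of each cluster, were read from the same fit. Abcg3, a transporter gene 133 kb from the Gbp4 and Gbp6 cluster, was at 9.64 ± 3.77 CPM (SD, n = 3) under WT and 3.08 ± 1.38 CPM (n = 3) under KO without overlap (log2 fold change -1.65, SE 0.47, edgeR adjusted p = 0.293). On the far side of that cluster Lrrc8b, a channel subunit, had a log2 fold change of -0.06. Zfp692, a zinc finger gene 84.3 kb beyond Irgm2, differed by 0.40 on the log2 scale (SE 0.18, edgeR adjusted p = 0.407) without overlap. The other 7 neighbours, Trim7, Psme2b, Mrpl22, Gm4841, Smim3, Pdlim5 and Kyat3, overlapped between groups. Over all genes tested, the groups did not overlap for 20.3%, so Abcg3 and Zfp692 do not set these neighbours apart. Among 12270 genes compared, those whose log2 CPM over the 6 libraries was most like the mean profile of the 10 GTPases were Fndc11 and Tm4sf1 (each r = 0.985), Ogfod1 (0.984), Serping1 (0.982), Scfd1 (0.973), Mfap1b (0.972), Mfap4 (0.970) and Dnajc16 (0.968). These correlations rest on 6 libraries that share depth and composition, and are given as a description.

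Other cell types also express these GTPases, and in bulk samples fewer cells of a type and less RNA per cell cannot be told apart. In WT replicate 3, the library with the highest Igtp, Irgm2 and Gbp4, 14 T and NK cell markers summed to 3.74 CPM, the lowest of the 6 libraries (highest 9.38), with Klrd1 at 0 in every library. Macrophage and monocyte markers summed to 182 CPM there, within the range of 23.5 to 435 CPM, which was mostly Lyz2. Csf1r, Marco, Itgax and C1qc were at 0 in all 6 libraries. The sum was highest in WT replicate 1 and lowest in WT replicate 2, as was that of alveolar type 2 cell markers. Whether the Lyz2 transcripts came from macrophages was not tested. Dendritic cell markers summed to 153 CPM in WT replicate 3 and to 255 CPM, the highest value, in KO replicate 2. They ran from 142 to 177 CPM elsewhere. Most of it was Clec9a and Zbtb46, at 145 and 106 CPM in KO replicate 2. There Xcr1 was at 3.14 CPM and every other marker of the list was lower, with Cd209a at 0. B cell markers summed to 2.87 to 9.51 CPM. Neutrophil markers summed to 26.6 to 37.1 CPM, of which Cxcr2 alone made up 24.1 to 31.5 CPM. Alveolar type 2 cell markers summed to 9547, 335 and 4201 CPM under WT and to 3703, 2398 and 782 CPM under KO. Fibroblast markers were at 163 to 222 CPM under WT and 319 to 470 CPM under KO. Collagens weighed most in the sum, with Col1a1, Col1a2 and Col3a1 at 127, 144 and 144 CPM in KO replicate 1. Of 10 tested, 9 log2 fold changes were positive and 1, of Tcf21, was negative (-0.42), with Col14a1 at 0.02. Col3a1 alone was called (log2 fold change 1.22, edgeR adjusted p = 0.0223), beside 0.0341% of all genes tested. Pericyte and smooth muscle markers ran from 143 to 671 CPM with overlap. The part of these cells in the GTPase levels was not tested.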

How the data were processed

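RNA of 6 libraries of sorted lung endothelial cells was measured; titles gave each one's group and replicate. The authors deposited estimated counts per gene, in whole numbers and not normalized, and the authors' own TPM values, which add up to between 875864 and 885609 per library. Kallisto and the build mm10 are named in the submitters' processing notes; version and annotation are not given there. Per the labels' protocols, cDNA was amplified from small amounts of RNA, and molecular identifiers are not mentioned, so floors cover counting error only. No source states that strand was kept, so a gene and its antisense partner are not told apart. Symbols and coordinates came from GENCODE M21 (24298 of 24520 identifiers had a symbol), and promoters from RefSeq on GRCm38.p6.

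In R 4.3.3 with edgeR 4.0.16 (limma 3.58.1), counts of all 6 libraries were scaled by TMM, filtered by group with filterByExpr and tested by quasi-likelihood, with p-values adjusted after Benjamini-Hochberg over all 14667 genes tested and a threshold of 0.05; CPM are TMM-scaled. On simulated data with these library sizes the test recovered 37% of genes changed 2-fold and 64% of genes changed 4-fold between KO and WT, with 4 false calls over 14330 genes. The alternatives were DESeq2 1.42.0, other scalings and filters, limma on log2 TPM, a replicate block, sex, male libraries only, leaving out each library in turn, and, added after the data were seen, near-identical copies summed for genes sharing over 10% of their 31-base words with 1 other gene. The genes examined and the lists were chosen with earlier results of these data known. Named genes were the 10 GTPases, Dnmt3a, every gene of the related GTPase, ligand, receptor and transcription factor lists, up to 4 called members of each other list or, with none, the 2 most abundant plus up to 4 without overlap, the 8 genes most like the mean profile and the nearest tested protein-coding genes outside the families on each side of each cluster; 1 gene of the transcription factor list is not reported here.

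Every pair of libraries differed by more than sampling noise (chi-square over degrees of freedom from 44.8 to 183), so each counted as 1 sample.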

Additional observations from a re-analysis of the deposited data

How the results depend on the processing

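The test called 0 of the 10 GTPase genes in all 18 alternatives, in which their adjusted p ran from 0.306 upward. At an unadjusted p under 0.05, 1 gene, Gbp3, passed with library size only and with sex as a covariate (each 11.8% of all genes). Gbp3 alone also passed in the 3 limma analyses of log2 TPM (12.9% to 14.2% of all genes). Leaving out 1 library in turn gave 0 to 3 genes. Without WT replicate 2 there were 3 (Igtp, Gbp4 and Gbp6), beside 10.2% of all genes. Without WT replicate 3 there were 2 (Gbp3 and Iigp1), beside 7.25%, and without KO replicate 1 there was 1 (Gbp4), beside 12.8%. The cause was not tested. Gbp3, Irgm1, Iigp1, Igtp and Gbp4 kept the sign of their log2 fold change in all 18 alternatives; Gbp7 and Irgm2 changed it in 1, Gbp5 in 2, and Gbp2 and Gbp6 in 3, and none of these values passed the threshold.

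Over all genes the count of 5 called became 412 with DESeq2, 9 with limma on log2(TPM + 0.1), 2 with sex as a covariate, 0 with male libraries only (10.7% of genes at an unadjusted p under 0.05) and 1 to 4 when 1 library was left out. Replicate numbers do not pair the samples: deviations of same-numbered libraries correlated at 0.28, -0.05 and -0.18. With the replicate block 0 genes were called, with 10.0% at an unadjusted p under 0.05, and 0 of the GTPase genes passed at either p.

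With 3 libraries per label, the 95% intervals of Gbp6 (-1.87 to 1.12) and Gbp5 (-0.87 to 1.34) were the widest of the 10, and Gbp5 rested on the fewest counts.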
